A study of Mus musculus with 6 samples.

Results

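The large cluster of replication-dependent histone genes on mouse chromosome 13 was described through the ChIP-seq peaks that fall in the mm9 window chr13:21700000-23950000. Membership was by position, with no use of peak values. The window spans 2.25 Mb and held 183 of the 76477 deposited peaks of 5 lists. The cells, ES48 and ES49, are murine Ewing sarcoma lines that EWS-FLI1 induced in the Balb/c strain, and both were grown without any special treatment. In both lines the fusion protein EWS-FLI1, a chimera of an RNA-binding protein and an ETS transcription factor, was precipitated through its FLAG tag, and histone H3 acetylated at lysine 27 (H3K27ac) was precipitated with its own antibody. Trimethylation of the same residue (H3K27me3) was mapped in ES49 alone. An ES49 input sample, with no antibody, was not analysed here. Each line and antibody had 1 library, so a difference between the lines and a difference between their libraries cannot be told apart, and no test between them was made. Read counts are not in the lists, and the depth behind each peak is unknown. Whether each line is a single clone is not given in the sources used here.

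The core histones H2A, H2B, H3 and H4 form the nucleosome, and H1 binds the DNA between nucleosomes. Most of their genes lie in clusters, have no introns, and are transcribed in S phase to supply new chromatin, with a coactivator called NPAT acting at a nuclear structure known as the histone locus body. H3K27ac marks active promoters and enhancers, whereas H3K27me3 is laid down by Polycomb repressive complex 2. An H3 tail cannot carry both marks on the same lysine.

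The peak lists hold no gene names, and gene positions were at hand only for another build (GRCm38), so no peak was assigned to a gene and the cluster is named from its position. In the GRCm38 gene order the cluster holds 56 histone genes, most of them in 2 main blocks. H2ac14 and H2ac5-ps are pseudogenes and are counted here among the H2A genes. The first block runs from H2bc13 to H2bc11 with 24 histone genes, 1 of them an H1 gene, 8 H2A, 8 H2B, 2 H3 and 5 H4. It is itself parted: 19 histone genes from H2bc13 to H4bc24 come first, then 39 other genes, 31 of which encode tRNAs, and then the 5 histone genes from H2ac12 to H2bc11. H4bc24 was counted as an H2B gene, which is what its older symbol names. The second block runs from H4c8 to H1f1 with 30 histone genes, 5 of H1, 6 of H2A, 6 of H2B, 7 of H3 and 6 of H4, and includes Hfe, a regulator of iron uptake. Of the 147 genes between the blocks, 79 are vomeronasal receptor genes or pseudogenes (Vmn1r), followed in order by tRNA genes, Zfp322a, Abt1 and the butyrophilin genes Btn1a1 and Btn2a2. H2bc1 and H2ac1, which encode testis variants, stand apart beyond Slc17a4. In at least 10 places an H2A gene and an H2B gene are neighbours on opposite strands with their starts facing each other. Strands were taken from promoter sequences, which H2ac14, H2bc4 and H2ac5-ps lack, so pairs with these genes were not counted.

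Promoter sequences of the cluster, from RefSeq (GRCm38.p6), are shown since H3K27ac marks active promoters and the histone classes differ in theirs. The first protein-coding gene of each class in chromosome order is given 5′ to 3′ on its own strand, up to the base before its start. H2bc13 reads the other strand of the stretch printed for H2ac13, its facing neighbour, and H2bc14 is the first H2B gene with an octamer. Capitals mark the CCAAT box, the TATA box letters (TATAAA) and the octamer of H2B promoters (ATTTGCAT), on either strand. Their GRCm38.p6 positions, which cannot be set beside the mm9 peaks, are chr13:21780626-21780875 on the minus strand for H1f5 and, on the plus strand, chr13:21716184-21716411 for H2ac13, chr13:21721802-21722043 for H2bc14, chr13:21717378-21717627 for H3c10 and chr13:21734784-21735033 for H4c11.
H1f5: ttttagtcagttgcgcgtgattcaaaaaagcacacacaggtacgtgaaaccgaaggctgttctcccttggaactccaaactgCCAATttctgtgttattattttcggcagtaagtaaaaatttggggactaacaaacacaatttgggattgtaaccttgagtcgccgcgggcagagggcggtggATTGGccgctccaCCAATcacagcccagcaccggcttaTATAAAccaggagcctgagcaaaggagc
H2ac13: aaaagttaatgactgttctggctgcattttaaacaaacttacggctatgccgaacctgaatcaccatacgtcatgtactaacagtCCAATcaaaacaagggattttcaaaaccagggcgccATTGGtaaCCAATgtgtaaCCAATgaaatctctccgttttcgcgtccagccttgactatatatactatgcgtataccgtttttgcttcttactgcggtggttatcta
H2bc14: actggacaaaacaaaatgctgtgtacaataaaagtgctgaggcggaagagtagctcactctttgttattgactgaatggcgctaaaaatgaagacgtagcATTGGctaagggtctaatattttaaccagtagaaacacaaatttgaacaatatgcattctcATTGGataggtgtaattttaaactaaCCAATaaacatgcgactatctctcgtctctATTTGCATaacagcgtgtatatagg
H3c10: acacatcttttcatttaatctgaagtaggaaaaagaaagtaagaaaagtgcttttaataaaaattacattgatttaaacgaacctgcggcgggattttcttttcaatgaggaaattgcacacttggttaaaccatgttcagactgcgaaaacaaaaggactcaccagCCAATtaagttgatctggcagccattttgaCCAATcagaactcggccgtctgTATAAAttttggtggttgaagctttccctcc
H4c11: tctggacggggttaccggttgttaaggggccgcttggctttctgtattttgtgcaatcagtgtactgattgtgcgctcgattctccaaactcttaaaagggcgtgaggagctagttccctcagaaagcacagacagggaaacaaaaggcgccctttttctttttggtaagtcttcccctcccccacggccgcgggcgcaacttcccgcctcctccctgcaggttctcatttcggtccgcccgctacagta

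CCAAT and the octamer differed in number between the classes. Of the 56 histone genes 51 matched the promoter table, with 52 entries of 300 bases, from 250 before to 50 after the start. CCAAT, the core of the box bound by NF-Y, stood on either strand in 6 of 6 H1, 13 of 13 H2A, 15 of 15 H2B and 7 of 7 H3 entries, and in 3 of 11 H4 entries. Of all 32851 entries, 37.4% held it. The TATA box letters TATAAA stood in 31 of 52 cluster entries (59.6%), against 13.6% of all entries, and in every class, with 4 of 6 H1, 8 of 13 H2A, 7 of 15 H2B, 4 of 7 H3 and 8 of 11 H4 entries. The octamer ATTTGCAT, which OCT1 binds in H2B promoters, stood in 6 of 15 H2B and 5 of 13 H2A entries and in none of the H1, H3 and H4 entries, against 1.74% of all. Facing H2A and H2B entries overlap, so they are not separate observations. GGAAGGAA, a pair of the GGAA unit of the repeats to which EWS-FLI1 is known to bind, was found in 1 of 52 entries, that of H4c4, against 3.79% of all. A single GGAA was not counted. A match describes letters only. None of these 4 motifs lies within another, and whether their matches share letters was not examined.

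EWS-FLI1 had no peak in the window in either line. Over all chromosomes it had 0.233 peaks per Mb in ES48 and 0.258 in ES49, so a count of 0 in 2.25 Mb is near the background. On the whole chromosome 13 the fusion had 2 of its 614 peaks in ES48 and 12 of its 681 peaks in ES49. The nearest to the cluster in ES49 was chr13:33705180-33705296, 9.76 Mb beyond the window with a score of 51.13, and the nearest in ES48 was chr13:4560475-4560827, 17.1 Mb before it with a score of 276.79. Scores are those of the authors' peak caller and are used here only within a list.

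H3K27ac was dense in the cluster in both lines, and H3K27me3 was sparse by number of peaks and covered length. ES48 had 105 H3K27ac peaks in the window, 46.7 per Mb against 9.84 per Mb over all chromosomes. ES49 had 72, or 32.0 per Mb against 11.2. These peaks covered 155.8 kb (6.92%) of the window in ES48 and 59.6 kb (2.65%) in ES49, where the whole lists covered 1.83% and 1.36% of all chromosomes up to their last peak. H3K27me3 of ES49 had 6 peaks in the window, 2.67 per Mb against 7.41, and covered 3.15 kb (0.140% against 0.627%). Of the peaks of chromosome 13, the window took 11.4% for H3K27ac in ES48, 6.97% for H3K27ac in ES49 and 0.746% for H3K27me3.

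In 100 kb steps, 10 of the 23 steps (43.5%) held H3K27ac, and they were the same 10 in both lines. Over all 26411 such steps 34.3% held an ES48 H3K27ac peak and 32.5% an ES49 peak. Of the steps acetylated in either line, 79% were so in both, so most of that match is the background. H3K27me3 stood in 3 steps of the window (13.04%), near the 13.5% of all steps. These 3 steps held H3K27ac of both lines too, as did 37.1% of the 3575 steps with H3K27me3 on all chromosomes. The last step of the window is 50 kb long and held no peak. The remaining 12 empty steps were the first of the window and the 11 in a row between 500 and 1600 kb from its start.

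**Figure D1:**
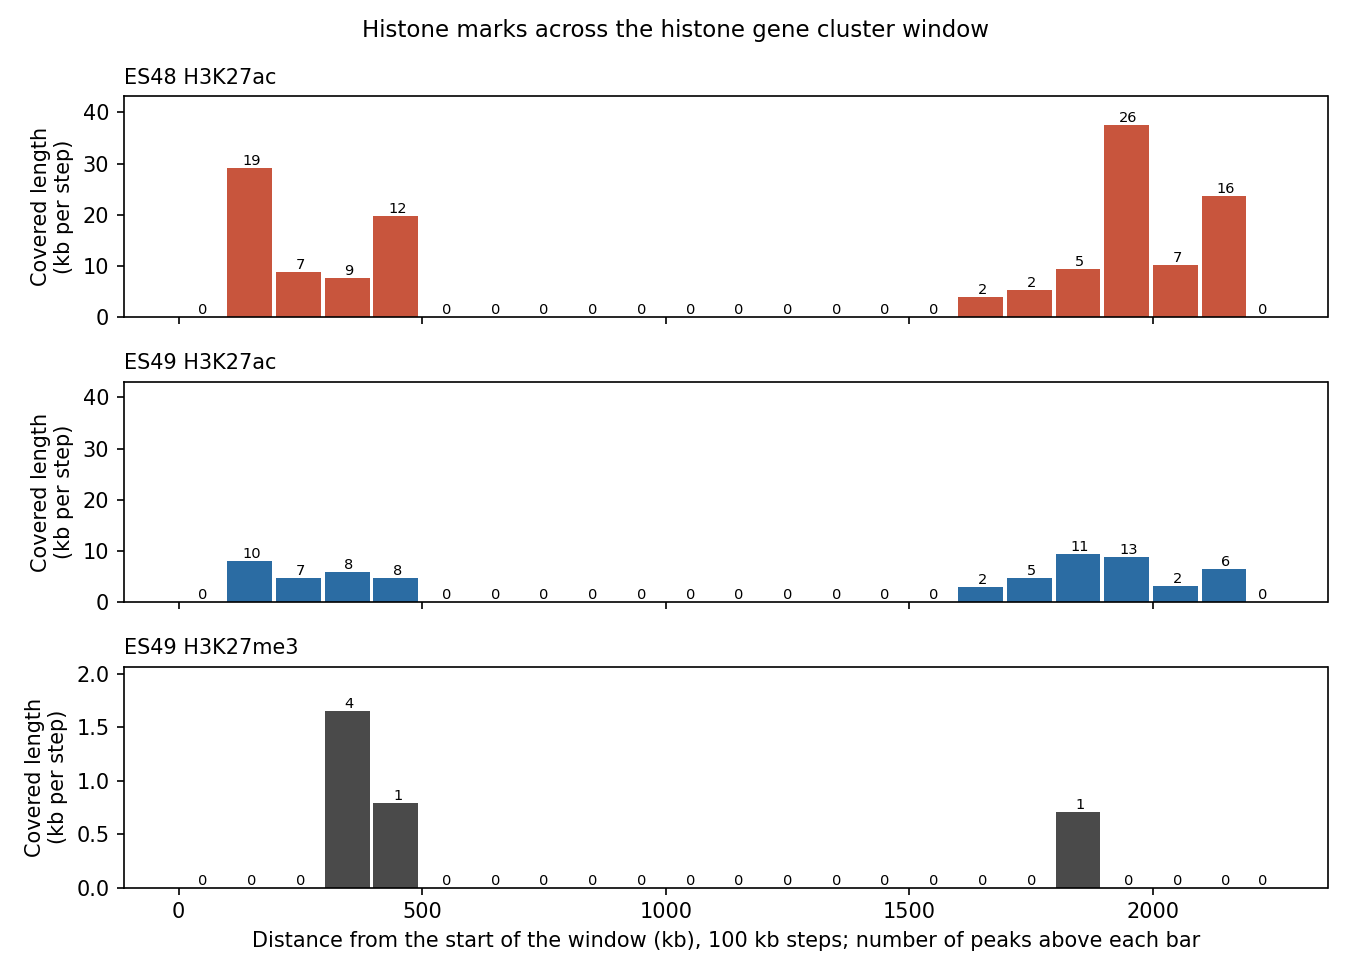
Covered length (kb) of ES48 H3K27ac, ES49 H3K27ac and ES49 H3K27me3 in each 100 kb step against distance from the window's start (kb), with the number of peaks above each bar; the H3K27me3 axis has its own, smaller scale. Acetylation stands in 2 groups of steps with 11 empty steps between them, and the tallest ES48 bar reaches 37.5 kb where ES49 has 8.86 kb.

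The acetylated steps differed far more among themselves in ES48, from 4.01 to 37.5 kb, than in ES49, from 3.02 to 9.55 kb. ES48 covered most in the step at chr13:23600001-23700000, with 26 peaks and 37.5 kb, where ES49 had 13 peaks and 8.86 kb. Next in ES48 came chr13:21800001-21900000, with 19 peaks and 29.2 kb against 10 peaks and 8.002 kb in ES49. The step at chr13:23800001-23900000 had 23.8 kb in ES48 and 6.61 kb in ES49, and the step at chr13:22100001-22200000 had 19.8 kb and 4.76 kb. In these 4 steps ES48 covered 3.60 to 4.23 times the length that ES49 did. Of the 9066 steps with ES48 H3K27ac on all chromosomes, 0.375% covered as much as the first of the 4 and 3.68% as much as the last. In ES49 none of the 4 was extreme, with 10.8% to 25.8% of its 8589 acetylated steps covering as much.

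The other 6 acetylated steps were closer between the lines. ES49 covered most in chr13:23500001-23600000, with 11 peaks and 9.55 kb, and ES48 had 5 peaks and 9.39 kb there. This was the only acetylated step of the window where ES49 covered more. At chr13:23400001-23500000 ES48 covered 5.41 kb and ES49 4.74 kb, and at chr13:23300001-23400000 the lengths were 4.01 and 3.02 kb. The step at chr13:22000001-22100000 had 7.62 kb in ES48 and 6.00 kb in ES49. Ratios were larger at chr13:21900001-22000000, with 8.95 against 4.78 kb, and at chr13:23700001-23800000, with 10.1 against 3.29 kb.

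ES48 covered more than ES49 in 9 of the 10 acetylated steps. On all chromosomes that was so in 72.7% of the 9862 steps acetylated in either line, so the direction alone is near the background. The size was larger: the median ratio of ES48 to ES49 was 2.48 over the 10 steps (0.984 to 4.23), against 1.28 (quartiles 1.01 and 1.73) over the 7793 steps acetylated in both lines. In 6 of the 10 steps the ratio lay above that upper quartile. Over the whole window ES48 covered 2.61 times the length of ES49, against 1.35 times over all chromosomes and 1.33 over chromosome 13. The number of peaks followed, at 1.46 times in the window against 0.876 over the whole lists. These ratios compare 2 separately called lists, and the part of depth in them was not tested.

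Joined at less than 100 kb, the H3K27ac peaks of both lines formed 2 runs. The first, chr13:21801732-22143698, is 342.0 kb long and held 47 ES48 and 33 ES49 peaks. The second, chr13:23377557-23856452, is 478.9 kb long and held 58 and 39. Their outer edges nearly coincided in the lines: the first run starts within 1 bp and ends within 167 bp in the 2 lists, and the second starts within 229 bp and ends within 432 bp. ES48 peaks covered 19.2% of the first run and 18.8% of the second, and ES49 peaks 6.88% and 7.53%.

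Between the runs, chr13:22143699-23377556 held no peak of any of the 5 lists over 1234 kb. Neither acetylation nor Polycomb methylation was called there. It was the 9th longest of 2043 stretches between peaks on chromosome 13 and the 290th of 54101 on all chromosomes, where the median is 4.43 kb. Beyond the second run the next peak of any list was H3K27me3 at chr13:24371277-24372893, so 515 kb without peaks follow that run.

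Within the second run the excess of ES48 was not even. Joined at less than 50 kb, the run splits into 3 stretches. In the first of these, chr13:23377557-23545948, ES48 covered 18.8 kb with 9 peaks and ES49 17.3 kb with 18, a ratio of 1.09. In the next, chr13:23617366-23715597, ES48 covered 41.6 kb (42.3% of the stretch) with 28 peaks and ES49 10.8 kb with 14, a ratio of 3.84. In the last, chr13:23773771-23856452, the lengths were 29.8 kb (36.0%) and 7.93 kb (9.59%), a ratio of 3.75. The covered share of ES49 was thus alike in all 3 (10.3% in the first), while that of ES48 was 11.2% in the first and over 3 times as high in the others. In the GRCm38 order, Zfp322a, Abt1, the butyrophilin genes and tRNA genes come between the receptor genes and the histone genes of the second block. That order places no peak at a gene.

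**Figure D2:**
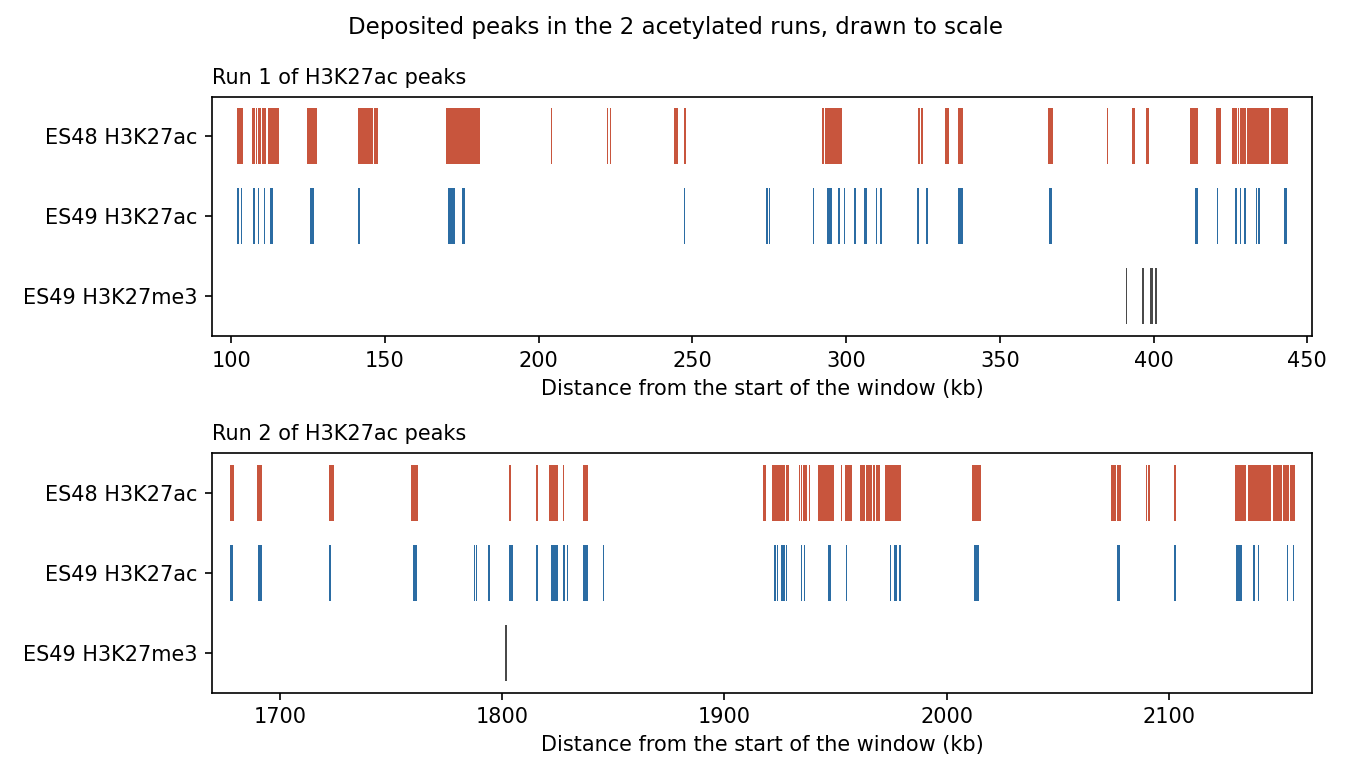
Each deposited peak of ES48 H3K27ac, ES49 H3K27ac and ES49 H3K27me3 in the first run (upper panel) and the second run (lower panel), drawn to scale against distance from the window's start (kb). ES48 peaks cover 42.3% of the middle stretch of the second run and 36.0% of its last, where ES49 has fewer and narrower peaks.

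Acetylation of ES49 lay largely inside that of ES48, as it did over the whole lists, and much of that of ES48 lay outside ES49. Of the 72 ES49 peaks, 58 overlapped an ES48 peak by at least 1 bp (80.6%, 95% Clopper-Pearson interval 69.5 to 88.9), against 68.6% of the whole ES49 list. Of the 105 ES48 peaks, 51 overlapped an ES49 peak (48.6%, 38.7 to 58.5), against 66.6% of the whole ES48 list. The intervals cover counting error only and treat neighbouring peaks as independent. By length, 50.2 kb were common, which is 84.2% of the ES49 and 32.2% of the ES48 covered length, against 79.1% and 58.7% over the whole lists. The ES48 share is bounded by the covered lengths, 59.6 kb in ES49 and 155.8 kb in ES48. It thus in part restates the larger ratio of the lines in the window. In the last 2 stretches of the second run 21 of 21 ES49 peaks overlapped ES48, and 29 of 49 ES48 peaks had no ES49 peak. In its first stretch the order was turned, with 9 of 9 ES48 peaks shared and 5 of 18 ES49 peaks alone.

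Peaks of the window were narrower than those of the whole lists. The median width was 1202 bp (quartiles 640 and 1761) in ES48, against 1475 bp over the list, and 673 bp (448 and 1111) in ES49, against 838 bp. In ES48 25 of 105 peaks (23.8%) were at least 2 kb wide, against 35.3% of the list, and in ES49 2 of 72 (2.78%) were, against 16.7%. The median score was 615.4 in ES48, against 547.5 over its list, and 130.3 in ES49, against 165.9. As the peaks were called, the larger covered share of ES48 in the window thus came with more peaks per Mb and not with wider ones than in its list. Some ES48 peaks nearly touch, such as chr13:22111836-22112662 and chr13:22112665-22114527. Widths with close peaks joined are not given here. Scores of ES48 reached 3100, the highest in the window, in 15 peaks (14.3%, against 19.6% of the list with that score or more). No ES49 peak of the window reached 3100, against 6.01% of the list. In the whole H3K27ac list of each line scores went up to 3233.06.

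The widest ES48 peak was chr13:22138331-22143698 with 5368 bp, at the end of the first run, where ES49 had a single peak of 957 bp. It was followed by chr13:21993279-21998559 (5281 bp), chr13:23641983-23647158 (5176 bp), chr13:21869857-21874927 (5071 bp) and chr13:23838984-23843123 (4140 bp). All 5 scored 3100, where 15 peaks tie, and all overlapped an ES49 peak. At chr13:21993279-21998559 ES49 had 2 peaks that covered 2.35 kb of it, with scores of 302.28 and 156.68. At chr13:23521139-23525048 (3910 bp, score 3035.90), in the stretch where the lines covered like lengths, 3 ES49 peaks covered 3.10 kb.

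In ES49 the widest peak was chr13:23830079-23832633 with 2555 bp and a score of 864.06, and chr13:21870649-21872692 (2044 bp), chr13:23712335-23714299 (1965 bp), chr13:23390295-23392103 (1809 bp) and chr13:23459961-23461749 (1789 bp) came next. The highest score, 1977.24, was that of chr13:23459961-23461749, and 11.2% of the ES49 list scored as high. It was followed by chr13:23536839-23538518 at 1280.27, chr13:23390295-23392103 at 895.26, chr13:23830079-23832633 at 864.06 and chr13:23837486-23838774 at 722.37. The 3 highest ES49 scores all lay in the first stretch of the second run. Each of these 7 peaks overlapped ES48 H3K27ac.

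**Figure D3:**
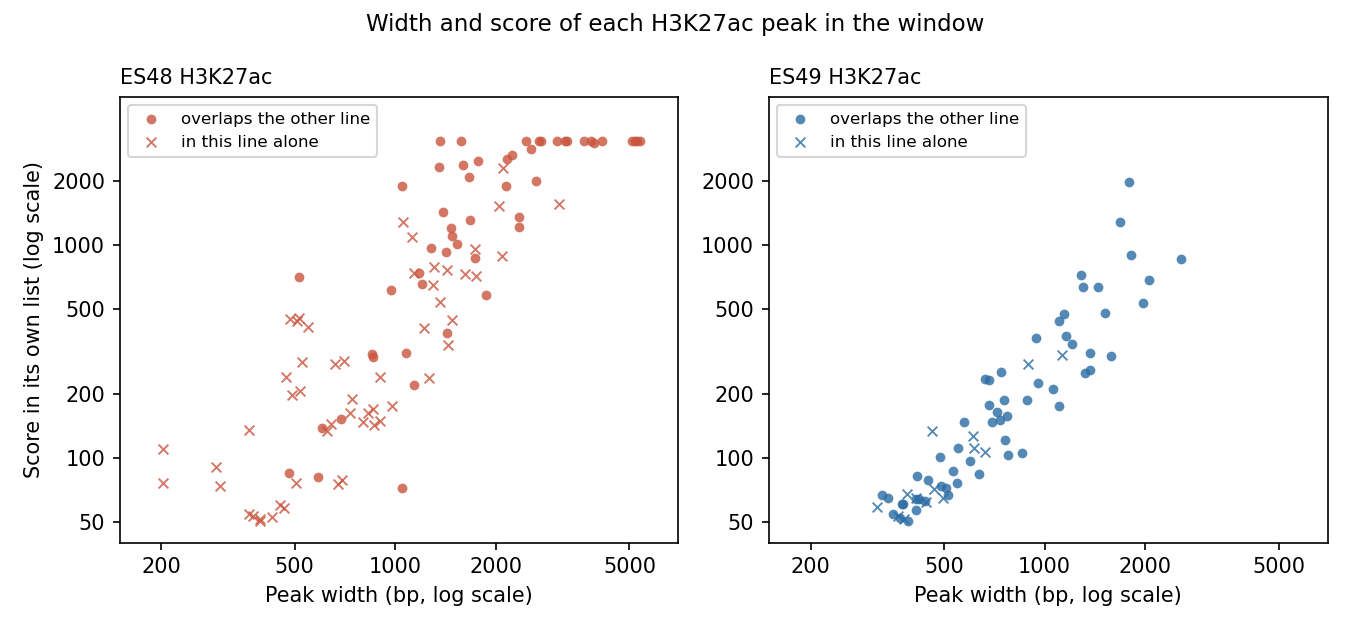
Width (bp) and caller's score of each H3K27ac peak of the window, both on log scales, for ES48 (left) and ES49 (right); circles overlap a peak of the other line and crosses do not. Scores are not comparable between the panels, the ES48 peaks level off at 3100, and most crosses lie at low width and score, with ES48 crosses reaching 3073 bp.

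Peaks of 1 line alone were mostly narrow, as over the whole lists, with exceptions in ES48. The 54 ES48 peaks without an ES49 peak were 716.5 bp wide at the median, the 51 shared ones 1662 bp, and the 14 ES49 peaks alone were 463.5 bp wide where the shared ones were 738.5 bp. Over the whole lists the peaks of ES48 alone were 690 bp and those of ES49 alone 457 bp wide at the median, so these widths are near the background. The widest in ES48 alone were chr13:21842331-21845403 (3073 bp, score 1562.77), chr13:23663629-23665725 (2097 bp, score 2295.67) and chr13:22135378-22137457 (2080 bp, score 884.94). Of the ES48 list, 25.1% scored as high as the second of these. In ES49 alone the widest were chr13:22005682-22006811 (1130 bp, score 306.05), chr13:23493499-23494390 (892 bp, score 275.62) and chr13:21973984-21974648 (665 bp, score 106.57).

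Rows of at least 3 such peaks, with no H3K27ac peak of the other line between them, held 31 of the 54 peaks in ES48 alone (57.4%, against 43.4% over its list). They held 11 of the 14 in ES49 alone (78.6%, against 47.7%). These shares also depend on how many peaks overlap the other line. In ES48 that was 48.6% in the window against 66.6% of the list, and in ES49 80.6% against 68.6%. The list shares are thus not a like background. ES48 had 6 such rows and ES49 3. At chr13:23656592-23673612, 8 ES48 peaks covered 10.1 kb, and at chr13:23843286-23852808 7 covered 7.52 kb. At chr13:21878992-21945274, 6 ES48 peaks were spread over 66.3 kb and covered 3.88 kb. The other ES48 rows had 3 peaks and 5.06 kb at chr13:21842331-21847687, 4 peaks and 2.84 kb at chr13:22084717-22112662, and 3 peaks and 3.15 kb at chr13:23832735-23837070. In ES49 the rows had 5 peaks and 2.66 kb at chr13:21999239-22011600, 3 peaks and 1.79 kb at chr13:23487542-23494390, and 3 peaks and 1.55 kb at chr13:21973984-21989676. Each ES49 row covered less length than any ES48 row, though not with fewer peaks than all of them.

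H3K27me3 of ES49 was confined in the window to a run of 5 peaks and a single peak. The run lay near the end of the first run of acetylation, with peaks at chr13:22091006-22091372, chr13:22096352-22096851, chr13:22098770-22099136, chr13:22099308-22099727 and chr13:22100332-22101119, and spanned 10.1 kb. Their scores were 53.99, 88.72, 54.64, 77.67 and 123.98, and 33.3% of the H3K27me3 list scored as high as the last of them. The single peak, chr13:23501502-23502210, scored 66.27. The 6 peaks were 367 to 788 bp wide, with a median of 460 bp against 500 bp over the list.

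No H3K27ac peak of the window overlapped H3K27me3, in 105 ES48 and 72 ES49 peaks. Over the whole lists 1.74% of the ES48 and 0.89% of the ES49 H3K27ac peaks did, and a count of 0 in so few peaks is near that background. In ES49 the run of H3K27me3 lay in a stretch of 46.6 kb without H3K27ac, 24.0 kb after the peak that ends at 22067014 and 12496 bp before the one that starts at 22113615. In ES48 2 H3K27ac peaks lay between the ES49 H3K27me3 peaks, chr13:22093103-22093998 (score 241.13) and chr13:22097674-22098412 (score 188.22). The second of them ended 358 bp before an ES49 H3K27me3 peak. ES48 has no H3K27me3 list, so methylation in that line was not analysed here. The single H3K27me3 peak of the second run had H3K27ac close by in both lines, 897 bp away in ES48 and 986 bp away in ES49.

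**Figure D4:**
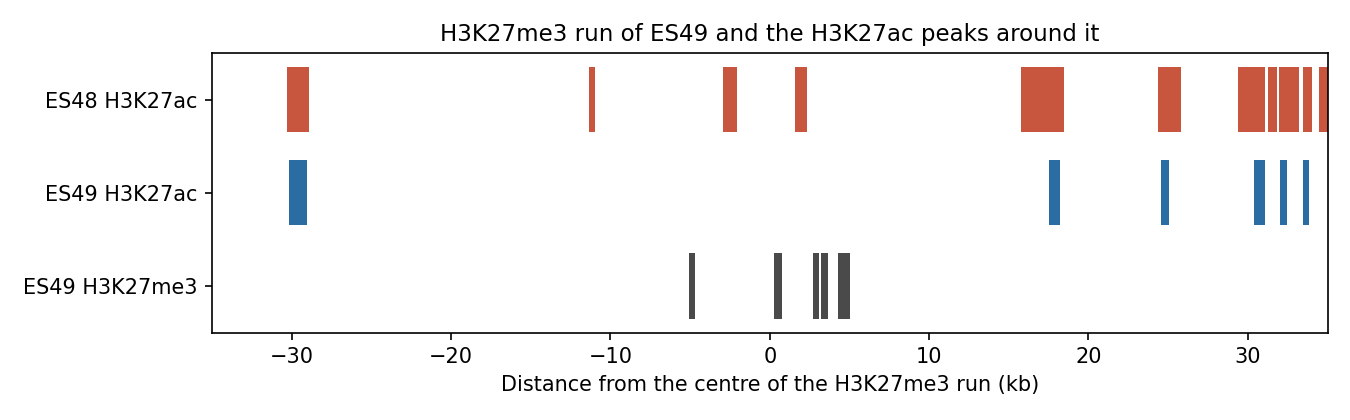
Peaks within 35 kb of the centre of the ES49 H3K27me3 run, drawn to scale, in ES48 H3K27ac, ES49 H3K27ac and ES49 H3K27me3. ES49 has no acetylated peak over the 46.6 kb around its 5 H3K27me3 peaks, and 2 ES48 H3K27ac peaks lie between them.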

How the data were processed

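ChIP-seq peak lists of 5 samples were used. The submitters' processing notes name Bowtie 1.1.1, SAMtools 1.2 and the build mm9. A MACS peak caller is named in the peaks' own names. Its settings, control and filters, and the treatment of reads that match several places, were not given in the sources used here. Histone genes have near-identical copies, so peaks over them are uncertain in position and strength. Each deposited list gives chromosome, start, end, name and the caller's score per peak, of unstated scale.

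Starts were written 1-based. A peak belonged to the window when it overlapped it. Covered length is the union of a list's peaks. The 100 kb steps over all chromosomes run from each chromosome's start to its last peak of any list. Shares carry 95% Clopper-Pearson intervals. The peaks named are the 5 widest and highest-scoring H3K27ac peaks per line, every H3K27me3 peak, the 3 widest H3K27ac peaks of 1 line alone and the steps with the most covered length. In ES48 15 peaks tie at the highest score, and only the 5 widest of them are listed. Some others were named beside these, such as chr13:23521139-23525048 and the ES48 H3K27ac peaks between the H3K27me3 peaks. Groups in 1 line have at least 3 peaks. These groups, the description by 50 kb stretches and the octamer promoter were chosen after the data were seen. Cluster genes were matched by symbol to RefSeq (GRCm38.p6). No test was run. The overlap and length functions were tested on simulated intervals. The window was set by coordinates. It and the gene lists were proposed with earlier results of these data known. Scripts ran in Python 3.11.15 with pandas 2.3.3, numpy 2.4.6, matplotlib 3.10.9 and scipy 1.17.1.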

Additional observations from a re-analysis of the deposited data

How the results depend on the processing

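Of 38 alternative values, 22 stayed within the tolerance set for them. Most are counts, shares or widths, which have no direction to turn. The ratio of ES48 to ES49 covered length kept its direction in each setting. The tolerance was 1.5 times for counts and for the ratio of the lines, the 95% interval for shares, and the quartiles for widths. Within it, the ES48 median width still went from 1202 to 1748 bp with the higher-scoring 50% of peaks, and the H3K27me3 steps from 3 to 2 with steps moved by 50 kb. The median width of the whole list at that score setting is not given here. Keeping the 50% of peaks that score highest per list, the window held 54 ES48 and 30 ES49 H3K27ac peaks and 1 H3K27me3 peak, covering 5.33%, 1.69% and 0.0350% of it, the ES49 H3K27ac median width was 1186 bp, and H3K27me3 stood in 1 step. Steps of 50 kb gave 17 acetylated steps and steps of 200 kb gave 6, in each line. Counting peaks within 1 kb, 66.7% of the ES48 H3K27ac peaks met ES49 H3K27ac, and 2 ES48 and 1 ES49 H3K27ac peaks met H3K27me3. Whole-list shares are given for an overlap of 1 bp only. They cannot be set beside these values, since looser counting would raise the list shares too. Joining at less than 50 kb gave 4 runs of H3K27ac in place of 2. These changes follow from fewer peaks, other step lengths and looser or tighter joining. The ratio of ES48 to ES49 covered length was checked by settings chosen after seeing the data: it was 3.14 with the highest-scoring 50% of each list (1.33 over all chromosomes), 3.75 with the 12985 highest-scoring peaks of each list (1.42) and 2.55 with peaks within 1 kb joined (1.31). No paired analysis was possible because each group has 1 sample. With 1 library per group and no read counts, what depth limits is unknown.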
